A study of Mus musculus with 12 samples.

Results

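The enzymes and regulators of sterol and fatty acid synthesis were followed in RNA from the mouse cochlear sensory epithelium, the sheet of mechanosensory hair cells and surrounding supporting cells. 32 genes were chosen by name, and a gene was kept if its mean over all libraries was at least 10 normalized counts. All 32 were in the table and passed, among 18400 genes that passed of 27754 in all. The lowest mean was that of *Ebp*, with 560.2 normalized counts, and the highest that of *Scd2*, with 48150. These counts grow with transcript length, so the levels of different genes are not compared.

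Tamoxifen was given to nursing mothers on day 1 (P1) or day 4 (P4) after delivery and reached the pups through milk. The pups were sacrificed 72 h later, so that "P1" libraries come from 4-day-old and "P4" libraries from 7-day-old cochleae. Treated pups carried *Sox2-CreER* and *β-catenin flox(Exon3)/+*, in which Cre removes exon 3 and leaves a β-catenin that is not degraded. Untreated pups were littermates with *β-catenin flox(Exon3)/+* and no Cre, and they were exposed to tamoxifen as well. All pups were of a mixed C57BL/6 and CD1 strain, and each library held the RNA of both ears of 1 pup. The replicates are therefore biological, with 3 libraries in each group except P4 treated, which had 2. Since Cre was driven from *Sox2*, the allele could recombine only where that gene had been active, whereas the RNA came from the whole epithelium.

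The libraries summed to between 41.2 and 44.2 M normalized counts. *Sox2* was between 4930 and 10485 and the outer hair cell gene *Slc26a5*, which codes for the motor protein prestin, between 228 and 4639, so both cell types of the label were present. Mesenchymal markers were detected too, although hair and supporting cells had been separated from mesenchyme and neurons. *Lum* was between 60859 and 141234, *Col5a1* between 1733 and 5506 and *Postn* between 198 and 3524. In untreated libraries *Lum* was higher at P4 and the other named markers at P1, so *Lum* alone is not read as the amount of mesenchyme. *Xist*, which is transcribed in female cells, divided the libraries. It was 26, 13 and 22 in P1 treated and 16, 3030 and 2794 in P1 untreated libraries. At P4 it was 4180 and 3268 in treated and 33, 32 and 39 in untreated libraries. Treatment at P4, and age in the treated libraries, therefore coincide fully with the level of *Xist*, and the effects cannot be told apart there. Treatment at P1, and age in the untreated libraries, coincide with it in part, since the P1 untreated libraries were divided in *Xist*.

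Cholesterol is made from acetyl-CoA through mevalonate, the isoprenoid diphosphates, squalene and lanosterol. Fatty acids are made from the same acetyl-CoA by carboxylation and repeated condensation, and are then elongated and desaturated. The transcription factors SREBP1 and SREBP2, the products of *Srebf1* and *Srebf2*, activate genes of both branches. SCAP escorts them from the endoplasmic reticulum to the Golgi when sterols are low, and INSIG1, itself an SREBP target, holds them back when sterols are plentiful. Cells that enlarge their membranes, such as myelinating glia, draw on both branches.

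Promoter sequences are shown because SREBP acts on many of these genes through short elements near the start of transcription, together with the factors NF-Y and Sp1. For 25 of the 32 genes RefSeq (GRCm38.p6) gave a window, 31 windows in all since some genes have several starts. The 250 bases before each annotated start were searched on both strands for a sterol regulatory element (TCACNCCAC), an NF-Y box (CCAAT) and an Sp1 box (GGGCGG). An NF-Y box was in at least 1 window of 20 of the 25 genes (80%), against 37.5% of the 27025 genes with a window. An Sp1 box was likewise found for 20 of 25 genes (80%), against 35.4%. The sterol regulatory element, spelled in this strict form, was found for 1 of 25 (4%), against 1.22%. The 27025 genes were not limited to those measured here, nor matched in base composition. The shares are therefore not read as particular to the pathway. *Hmgcs1*, which holds all of the elements, and 5 genes that differed between ages are given 5′ to 3′, with the matches in capitals. No match in these 6 windows overlaps another.
Hmgcs1, chr13:119690101-119690350, plus strand: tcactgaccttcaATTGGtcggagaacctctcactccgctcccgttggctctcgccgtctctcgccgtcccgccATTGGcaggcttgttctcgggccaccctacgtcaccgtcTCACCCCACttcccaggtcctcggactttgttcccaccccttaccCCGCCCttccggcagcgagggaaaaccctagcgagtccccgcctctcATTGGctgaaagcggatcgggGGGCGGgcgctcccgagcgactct
Idi1, chr13:8885356-8885605, plus strand: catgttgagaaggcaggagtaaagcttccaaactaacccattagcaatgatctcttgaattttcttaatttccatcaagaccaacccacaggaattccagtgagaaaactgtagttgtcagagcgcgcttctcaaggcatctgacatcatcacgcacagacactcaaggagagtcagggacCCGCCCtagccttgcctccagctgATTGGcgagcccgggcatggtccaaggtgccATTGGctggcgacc
Insig1, chr5:28071162-28071411, plus strand: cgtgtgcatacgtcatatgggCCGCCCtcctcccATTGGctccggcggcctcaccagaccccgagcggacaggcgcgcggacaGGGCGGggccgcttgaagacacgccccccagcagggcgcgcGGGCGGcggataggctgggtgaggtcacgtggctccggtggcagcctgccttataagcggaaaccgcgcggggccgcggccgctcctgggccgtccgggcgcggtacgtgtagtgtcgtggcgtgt
Acss2, chr2:155517793-155518042, plus strand: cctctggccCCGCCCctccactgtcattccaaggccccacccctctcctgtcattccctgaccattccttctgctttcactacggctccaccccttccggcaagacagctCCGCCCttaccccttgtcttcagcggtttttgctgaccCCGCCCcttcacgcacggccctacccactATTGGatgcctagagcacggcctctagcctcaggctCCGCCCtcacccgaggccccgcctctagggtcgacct
Ebp, chrX:8193513-8193762, minus strand: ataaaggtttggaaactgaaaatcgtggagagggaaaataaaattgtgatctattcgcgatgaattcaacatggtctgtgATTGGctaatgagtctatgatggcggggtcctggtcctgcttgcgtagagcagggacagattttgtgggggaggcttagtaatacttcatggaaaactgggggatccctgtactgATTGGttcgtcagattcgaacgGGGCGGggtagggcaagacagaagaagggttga
Elovl5, chr9:77917115-77917364, plus strand: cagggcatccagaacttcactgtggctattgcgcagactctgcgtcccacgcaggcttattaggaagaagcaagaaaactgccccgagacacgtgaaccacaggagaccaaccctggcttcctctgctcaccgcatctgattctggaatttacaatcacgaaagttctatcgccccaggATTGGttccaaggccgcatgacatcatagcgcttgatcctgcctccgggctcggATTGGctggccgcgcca
In *Hmgcs1* the sterol regulatory element lies 129 bases before the start, between NF-Y boxes. *Idi1* held 2 NF-Y boxes and 1 Sp1 box, *Insig1* 1 and 3, *Acss2* 1 and 4, *Ebp* 2 and 1, and *Elovl5* 2 and 0. *Idi1*, *Insig1* and *Acss2* were higher at P1 in at least 1 comparison below, whereas *Ebp* and *Elovl5* were higher at P4, so boxes of the same kind stand before genes of both directions. A match is a run of letters and not a site shown to be used.

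Age was examined first, by comparing P1 with P4 libraries separately in untreated and in treated pups. A gene was called if the adjusted p from limma (Benjamini-Hochberg, over all genes tested) was under 0.05 and the log2 fold change over 0.32 in either direction. Log2 fold changes are of normalized count + 1, and age differences are P1 minus P4. In untreated libraries 9 of the 32 genes were called (28.1%), against 19.9% of all genes. Of these, 4 were higher at P1 (12.5%, against 10.5% of all genes) and 5 were higher at P4 (15.6%, against 9.38%). In treated libraries 7 of 32 were called (21.9%, against 11.1%), 5 of them higher at P1 (15.6%, against 5.63%) and 2 higher at P4 (6.25%, against 5.42%). The shares in untreated libraries were near those of all genes and are not read as particular to the pathway. The median log2 fold change of the 32 genes was 0.03 in untreated and 0.05 in treated libraries, against 0.02 and 0.00 over all genes. 6 genes, *Idi1*, *Acss2*, *Scd1*, *Elovl5*, *Elovl6* and *Fads1*, were called in both comparisons, each in the same direction. *Hsd17b7*, *Ebp* and *Fasn* were called in untreated libraries alone and *Insig1* in treated libraries alone, and 22 genes in neither. In these bulk samples, fewer cells of a type and less RNA per cell cannot be told apart.

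**Figure D1:**
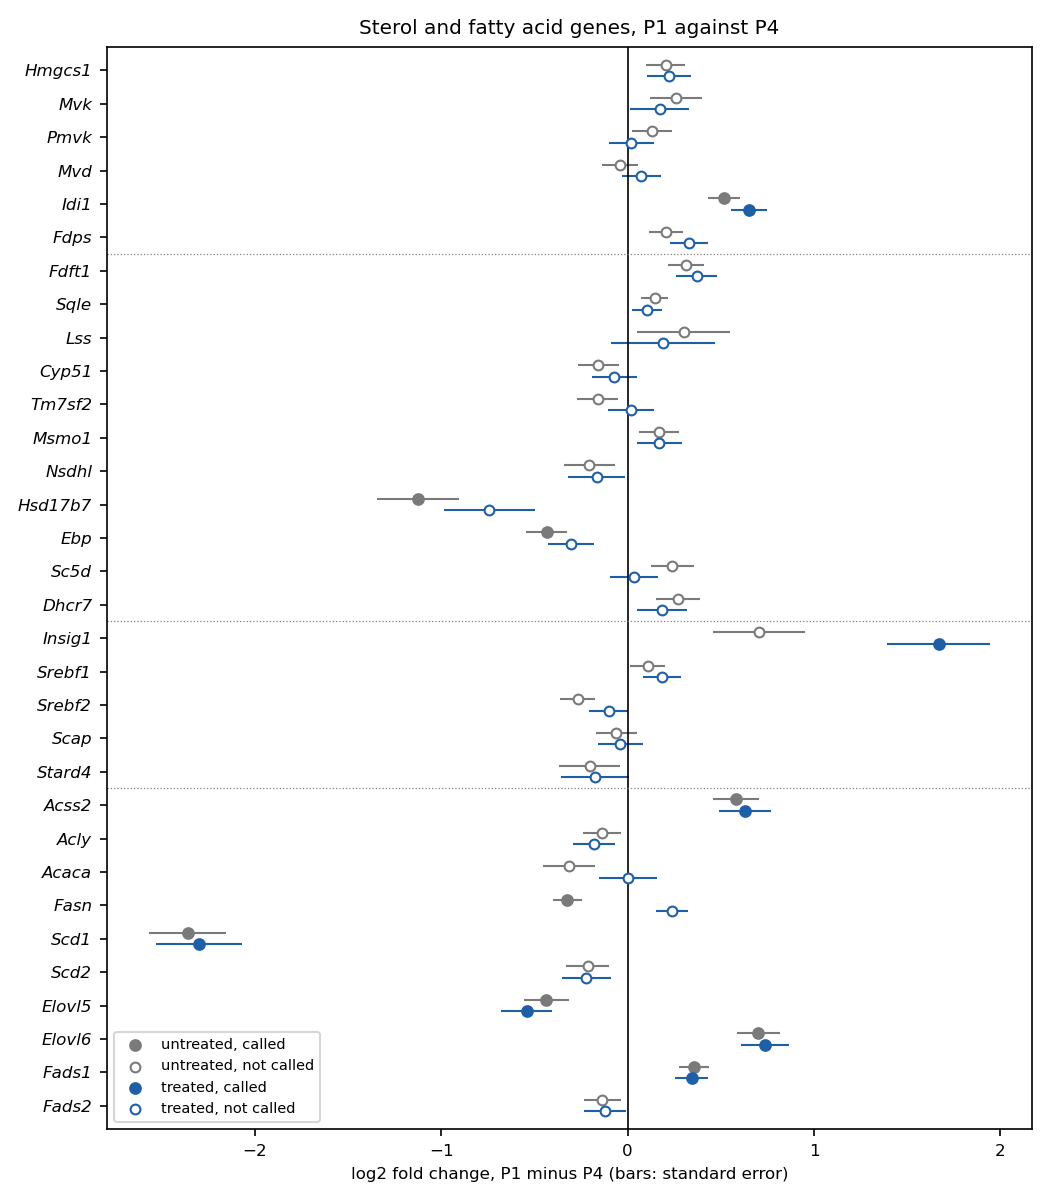
Log2 fold change between ages (x axis, P1 minus P4, bars show the standard error) of the 32 genes (y axis), in untreated (grey) and treated (blue) libraries, with dotted lines between the mevalonate, squalene to cholesterol, SREBP and fatty acid groups. Filled points are called. *Scd1* lies farthest to the left in both, at -2.36 and -2.30, and *Insig1* farthest to the right in treated libraries, at 1.67.

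Among the 6 genes of the mevalonate and isoprenoid steps, only *Idi1* was called, in both comparisons. That is 16.7% of them, against 19.9% of all genes in untreated and 11.1% in treated libraries. *Idi1* codes for isopentenyl-diphosphate isomerase, which interconverts the isoprenoid building blocks. It measured 1869, 2020 and 1864 in P1 untreated, 2315, 2298 and 2112 in P1 treated, 1250, 1341 and 1432 in P4 untreated and 1495 and 1359 in P4 treated libraries. Each P1 library was above each P4 library. The level was 1.43-fold higher at P1 in untreated pups (log2 fold change 0.52, standard error 0.0852, adjusted p = 0.0025) and 1.57-fold higher in treated pups (0.65, standard error 0.0952, adjusted p = 0.00382). *Fdps*, farnesyl diphosphate synthase, was not called, with log2 fold changes of 0.21 (adjusted p = 0.14) and 0.33 (adjusted p = 0.0661). *Hmgcs1*, which makes HMG-CoA, had means of 5621 ± 59 (SD, n = 3) at P1 and 4917 ± 750 (SD, n = 3) at P4 in untreated libraries and was not called. *Mvk*, *Pmvk* and *Mvd*, which phosphorylate and decarboxylate mevalonate, were not called either and lay between 829 and 1890 in all libraries. The median of the 6 genes was 0.21 in untreated and 0.20 in treated libraries.

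The 11 genes from squalene to cholesterol had 2 calls in untreated libraries (18.2%, against 19.9% of all genes), both higher at P4. None was called in treated libraries (0%, against 11.1%). *Hsd17b7*, the 3-keto-reductase of C4 demethylation, measured 3334, 5655 and 3425 in P1 untreated, 5581, 3982 and 5921 in P1 treated, 7345, 8787 and 10363 in P4 untreated and 7836 and 9228 in P4 treated libraries. P1 and P4 libraries did not overlap in either comparison, although P1 untreated replicate 2 was well above the other P1 untreated libraries. The level was 2.18-fold higher at P4 in untreated libraries (log2 fold change -1.12, standard error 0.22, adjusted p = 0.0059). In treated libraries the log2 fold change was -0.74 (standard error 0.246) and was not called, at an adjusted p of 0.0804.

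*Ebp* codes for the sterol isomerase that moves a double bond in the sterol ring, and lies on the X chromosome. It measured 517, 555 and 501 in P1 untreated, 455, 474 and 422 in P1 treated, 647, 739 and 742 in P4 untreated and 549 and 561 in P4 treated libraries. The lowest group was P1 treated and the highest P4 untreated. *Ebp* was 1.35-fold higher at P4 in untreated libraries (-0.43, standard error 0.109, adjusted p = 0.0187). In treated libraries the log2 fold change was -0.30 (adjusted p = 0.14), below the threshold of a call. *Fdft1*, squalene synthase, which commits isoprenoids to sterols, was between 3817 and 4505 in P1 untreated and between 3218 and 3541 in P4 untreated libraries. Its adjusted p was 0.0451, but its log2 fold change of 0.31 fell short of the threshold. In treated libraries it had a log2 fold change of 0.37 (adjusted p = 0.0548). *Dhcr7*, the last reductase of one branch, had a log2 fold change of 0.27 in untreated libraries (adjusted p = 0.132). *Fdft1* and *Dhcr7* thus had estimates above 0, and *Hsd17b7* and *Ebp* below it.

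The other 7 genes of this group were not called between ages. They were *Sqle*, the oxygen-dependent epoxidase of squalene, *Lss*, which closes the ring to lanosterol, *Cyp51*, *Tm7sf2*, *Msmo1*, *Nsdhl* and *Sc5d*, which modify it. *Sqle* was between 5071 and 6748 in all libraries. *Lss* varied most among replicates, with 1261, 1931 and 1076 in P1 untreated and 1720, 1107 and 1004 in P1 treated libraries. The median of the 11 genes was 0.15 in untreated and 0.04 in treated libraries.

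Of the 5 genes of SREBP control and sterol transport, none was called in untreated libraries (0%, against 19.9% of all genes). *Insig1* was called in treated libraries (20%, against 11.1%). It measured 1343, 2060 and 2020 in P1 untreated, 3340, 2425 and 2438 in P1 treated, 1316, 732 and 1333 in P4 untreated and 859 and 840 in P4 treated libraries. P1 treated libraries were the highest and P4 treated among the lowest, with no overlap between ages in either comparison. In treated pups the level at P1 was 3.18-fold that at P4 (log2 fold change 1.67, standard error 0.275, adjusted p = 0.00603). In untreated pups the log2 fold change was 0.71 (standard error 0.246) and was not called, at an adjusted p of 0.0655. *Srebf2*, whose protein acts mostly on sterol genes, was between 6859 and 8192 in P1 untreated and between 8374 and 9447 in P4 untreated libraries. Its log2 fold change of -0.27 was not called (adjusted p = 0.0628). *Srebf1*, whose protein acts mostly on fatty acid genes, *Scap* and *Stard4*, a carrier of cholesterol within the cell, were not called in either comparison. *Srebf1* lay between 11076 and 15085 in all libraries.

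The 10 genes of fatty acid synthesis, desaturation and elongation had the most calls, and they went both ways. In untreated libraries 6 of 10 were called (60%, against 19.9% of all genes) and in treated libraries 5 of 10 (50%, against 11.1%). *Acss2*, *Elovl6* and *Fads1* were higher at P1 and *Scd1* and *Elovl5* higher at P4 in both. *Fasn* was higher at P4 in untreated libraries. The median was -0.18 in untreated and -0.06 in treated libraries.

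*Scd1*, a stearoyl-CoA desaturase that puts the first double bond into saturated fatty acids, changed most of the 32 genes. It measured 1859, 1274 and 1384 in P1 untreated, 2123, 1730 and 1375 in P1 treated, 7145, 6681 and 9310 in P4 untreated and 7066 and 10107 in P4 treated libraries. The lowest P4 library, at 6681, stood far above the highest P1 library, at 2123. The level was 5.13-fold higher at P4 in untreated pups (log2 fold change -2.36, standard error 0.208, adjusted p = 0.000131) and 4.92-fold higher in treated pups (-2.30, standard error 0.232, adjusted p = 0.000724). It ranked 50th and 30th by p among the 18400 genes. *Scd2*, a related desaturase, was not called. It lay between 38975 and 54009 at P1 and between 41783 and 56169 at P4, so the groups overlapped. The paralogs lie near each other on chromosome 19 (mm10), *Scd2* from 44293676 to 44306864 and *Scd1* from 44394450 to 44407709, and reads that match both could have been divided between them.

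The elongases of the list went in opposite directions. *Elovl6*, which extends saturated and monounsaturated chains, measured 978, 860 and 916 in P1 untreated, 852, 991 and 1053 in P1 treated, 607, 555 and 532 in P4 untreated and 610 and 545 in P4 treated libraries. All P1 libraries were above all P4 libraries. It was 1.62-fold higher at P1 in untreated (0.70, standard error 0.115, adjusted p = 0.00249) and 1.67-fold higher in treated libraries (0.74, standard error 0.129, adjusted p = 0.00767). *Elovl5*, which extends polyunsaturated chains, measured 4441, 4788 and 4349 in P1 untreated, 5608, 3969 and 5032 in P1 treated, 6073, 5566 and 6773 in P4 untreated and 6832 and 7209 in P4 treated libraries. The groups did not overlap between ages in untreated or in treated pups. It was 1.35-fold higher at P4 in untreated (-0.44, standard error 0.121, adjusted p = 0.0286) and 1.46-fold higher in treated libraries (-0.54, standard error 0.135, adjusted p = 0.03).

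The polyunsaturated desaturases also differed. *Fads1*, the Δ5 desaturase, measured 7714, 7748 and 8244 in P1 untreated, 8653, 7566 and 8079 in P1 treated, 6290, 5758 and 6500 in P4 untreated and 6793 and 5983 in P4 treated libraries, with every P1 library above every P4 library. It was 1.28-fold higher at P1 in untreated (0.36, standard error 0.0798, adjusted p = 0.0111) and 1.27-fold higher in treated libraries (0.34, standard error 0.0892, adjusted p = 0.0344). *Fads2*, the Δ6 desaturase and neighbor of *Fads1* on chromosome 19, was not called. Its means were 4495 ± 194 (SD, n = 3) in P1 untreated and 4952 ± 496 (SD, n = 3) in P4 untreated libraries.

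The genes that supply and build the chain were mixed as well. *Acss2*, which makes acetyl-CoA from acetate, measured 1960, 2417 and 1822 in P1 untreated, 2001, 2328 and 2355 in P1 treated, 1317, 1272 and 1534 in P4 untreated and 1508 and 1365 in P4 treated libraries. Here again the ages did not overlap. It was 1.50-fold higher at P1 in untreated (0.58, standard error 0.124, adjusted p = 0.00884) and 1.55-fold higher in treated libraries (0.63, standard error 0.139, adjusted p = 0.0188). *Acly*, which makes acetyl-CoA from citrate, was not called, with means of 12100 ± 439 (SD, n = 3) in P1 untreated and 13350 ± 1570 (SD, n = 3) in P4 untreated libraries. *Acaca*, acetyl-CoA carboxylase, had a log2 fold change of -0.31 in untreated libraries (adjusted p = 0.133).

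*Fasn*, the fatty acid synthase that assembles palmitate, measured 13346, 12604 and 12451 in P1 untreated, 15856, 19090 and 16666 in P1 treated, 15214, 16090 and 16760 in P4 untreated and 14795 and 14264 in P4 treated libraries. In untreated pups the P4 libraries were all above the P1 libraries, and in treated pups the P1 libraries were all above the P4 libraries. It was higher at P4 in untreated libraries (log2 fold change -0.32, standard error 0.0781, adjusted p = 0.0156), just past the threshold on the fold. In treated libraries the log2 fold change was 0.24 (standard error 0.0873) and was not called (adjusted p = 0.106).

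**Figure D2:**
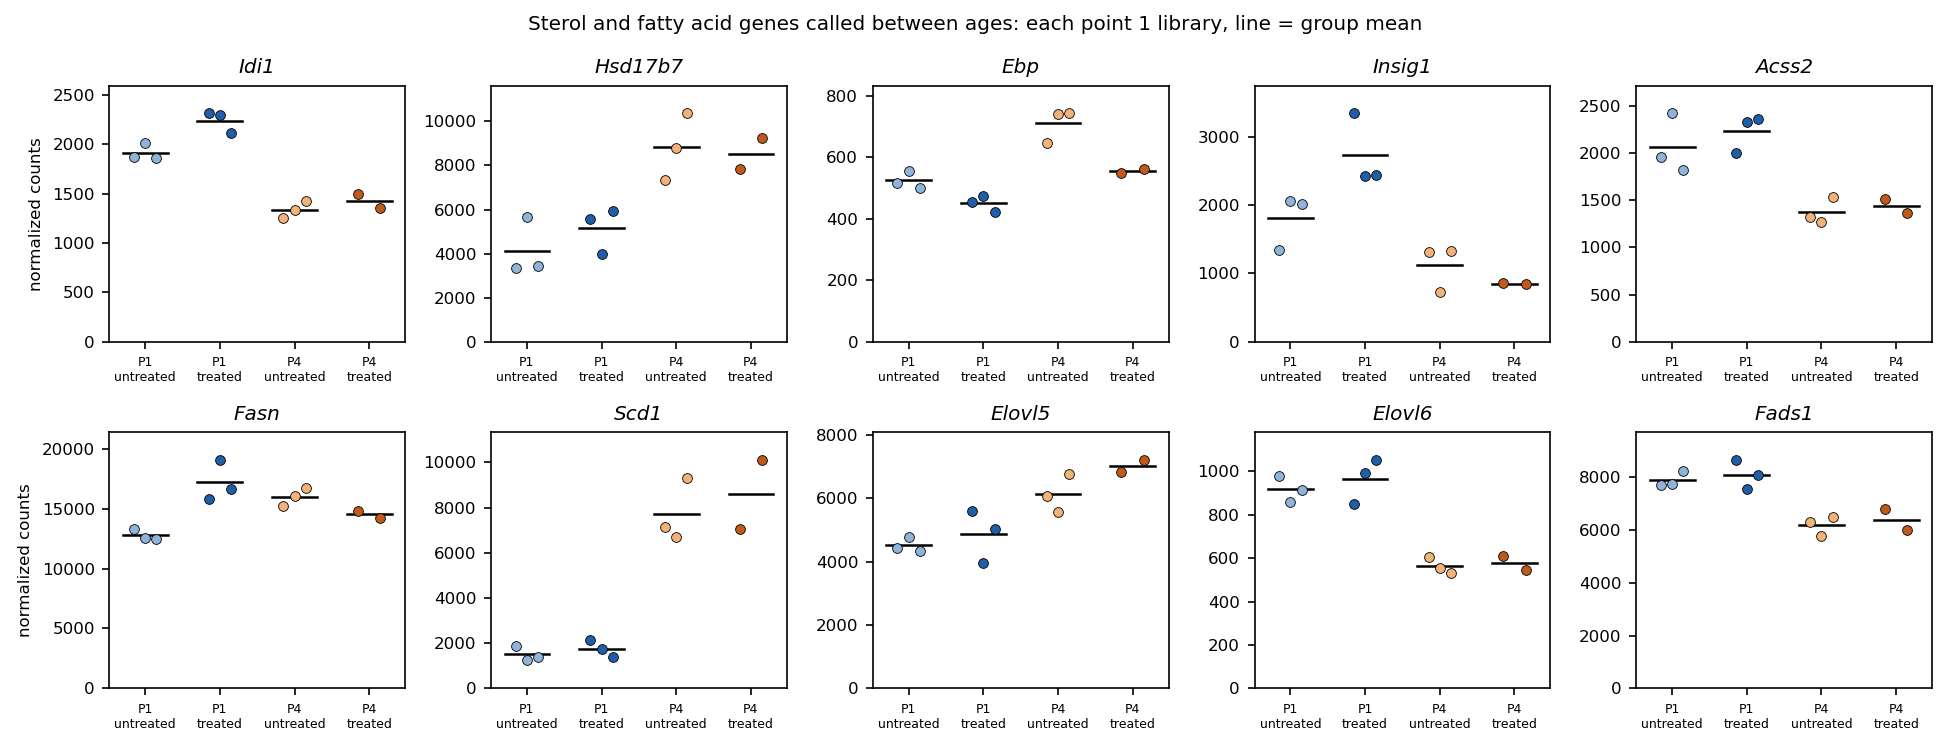
Normalized counts (y axis, from 0) in each library (points) of the 10 genes called between ages, by group (x axis), with the group mean as a line. *Scd1*, *Hsd17b7* and *Elovl5* were higher at P4, and *Idi1*, *Insig1*, *Acss2*, *Elovl6* and *Fads1* at P1.

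With log2 *Xist* as a covariate over all libraries, *Idi1*, *Elovl6*, *Hsd17b7* and *Scd1* remained called in untreated libraries and *Scd1* in treated libraries. In that fit only 10 genes of 18400 were called higher and 18 lower between the treated groups. The adjustment rested mostly on the P1 untreated libraries (16, against 3030 and 2794), since *Xist* varied little within the other groups. A call that remained is therefore not read as separated from *Xist*, least of all in treated libraries, where *Xist* coincides fully with age.

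Some of these calls were lost when a single library was left out, without a change of sign. In untreated libraries the call of *Ebp* was lost without P1 untreated replicate 1 or 3 or P4 untreated replicate 2 or 3. Its log2 fold change lay between -0.54 and -0.40 over all alternatives tried. *Fasn* lost its call without P1 untreated replicate 2 or 3 or P4 untreated replicate 2 or 3 (-0.36 to -0.26 over all alternatives). *Elovl5* lost it without P1 untreated replicate 1 or 3 or P4 untreated replicate 1 or 3 (-0.50 to -0.36). *Fads1* lost it without P4 untreated replicate 2 (0.30 to 0.39). In treated libraries *Idi1*, *Insig1* and *Elovl6* lost their calls without P4 treated replicate 3, and *Acss2*, *Fads1* and *Elovl5* without either P4 treated library. *Fads1* also lost it there without P1 treated replicate 1 or 3 or P1 untreated replicate 1, with no filter on low values, without the trend of the spread and with only the groups compared, 9 of 22 alternatives in all. *Elovl5* lost its call without the trend in both comparisons, and in treated libraries also with only the groups compared and with the replicate number as a block, which there ended the call of *Acss2* too. Over all alternatives the log2 fold change of *Insig1* in treated libraries lay between 1.52 and 2.32 and that of *Idi1* between 0.58 and 0.72. That of *Elovl6* lay between 0.58 and 0.82, of *Acss2* between 0.56 and 0.73, of *Fads1* between 0.25 and 0.43 and of *Elovl5* between -0.65 and -0.40.

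Cell type markers also differed between ages. Of 10 hair cell markers, 5 were called in untreated libraries (50%, against 19.9% of all genes). Of these, 2 were higher at P1 and 3 higher at P4. *Ocm*, an outer hair cell calcium buffer, was 11-fold higher at P4 and *Atoh1*, the hair cell fate factor, 2.21-fold higher at P1. The summed level of the hair cell markers was 23936 to 39545 in P1 untreated, 47756 to 55297 in P4 untreated, 28417 to 35995 in P1 treated and 48507 to 52626 in P4 treated libraries. That of 10 supporting cell markers was 432750 to 481623, 691236 to 894618, 450899 to 767498 and 748806 to 813216 in the same order, most of it *Tectb*. That of 10 mesenchymal markers was 146372 to 168915, 188356 to 207225, 135852 to 212519 and 192786 to 216496, of which *Lum* was 60859 to 66546, 102410 to 117522, 94107 to 132049 and 140953 to 141234. Their mean log2 level went the other way, from 12.42 to 12.68 in P1 untreated and from 11.83 to 12.01 in P4 untreated libraries, with a median log2 fold change of 0.63 and 6 of 10 above 0. *Lum* was called higher at P4, and *Col5a1* and *Postn*, 2.28-fold and 5.63-fold, higher at P1. Of 16 markers of myelinating Schwann cells 3 were called in untreated libraries (18.8%, against 19.9% of all genes). Among them *Egr2* was 8.52-fold and *Ncmap* 1.86-fold higher at P1, and *Drp2* was 2.86-fold higher at P4. Their sum was 26965 to 36496 in P1 untreated, 27968 to 40301 in P4 untreated, 32143 to 38955 in P1 treated and 29954 to 31803 in P4 treated libraries. None of the markers of these 4 lists was at 0 in every library. Their part in the differences of sterol and fatty acid genes was not tested. Of 10 lipid droplet and adipocyte genes, 9 were measured and 2 passed the filter. These were *Plin2*, between 1059 and 1749, and *Retn*, between 12 and 32. *Lep*, *Plin1* and *Fabp4* were between 0 and 4 in every library. *Plin4*, *Cidec*, *Cfd* and *Adig* were at most 16 in any library.

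**Figure D3:**
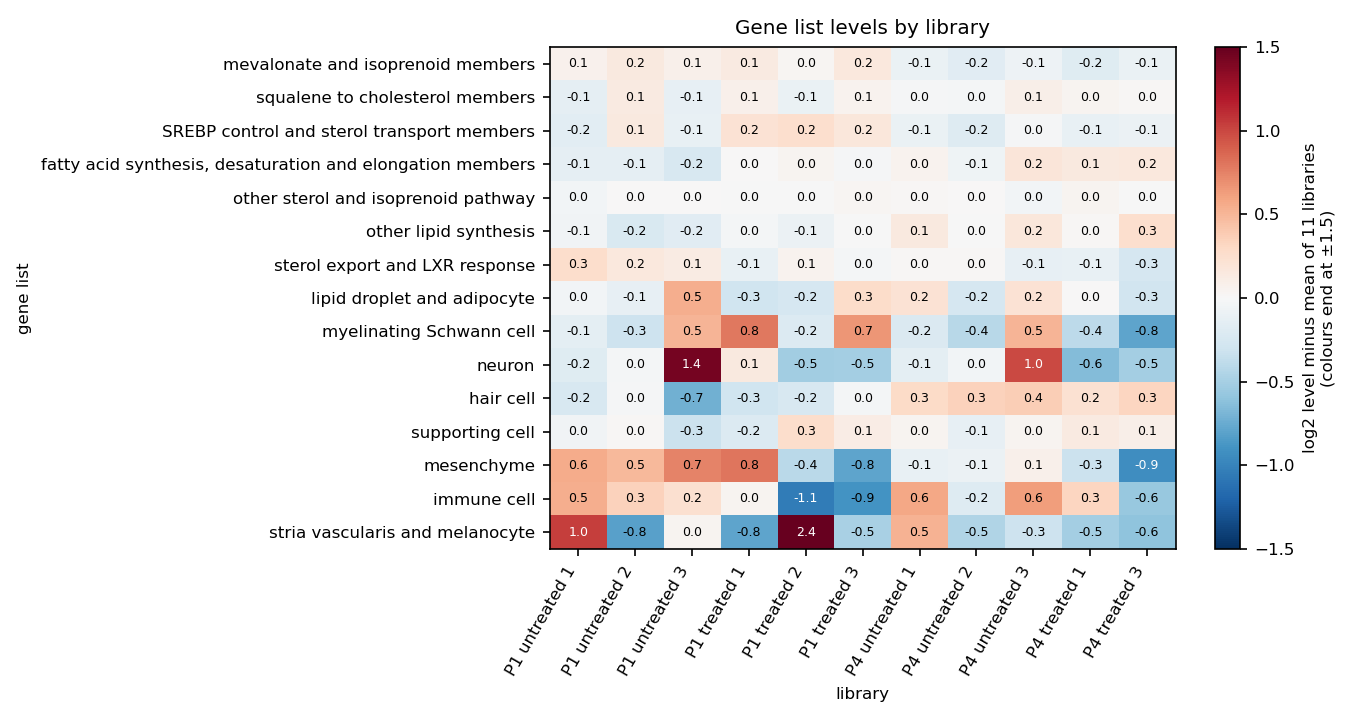
Mean log2 level of the gene lists (rows, without fatty acid oxidation) in each library (columns), less the mean over the 11 libraries, with red for higher and blue for lower. The 4 lists of sterol and fatty acid genes at the top spanned at most 0.43 between libraries. Members of the fatty acid list went in both directions between ages, so its mean hides changes of single genes. Mesenchymal, immune and neuronal lists spanned 1.74, 1.68 and 2.08, and the stria vascularis list 3.20, with P1 treated replicate 2 highest in the latter.

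Treatment was examined next, by comparing treated with untreated libraries at each age. These comparisons use the same libraries as those of age. None of the 32 genes was called at P1, where 0.261% of all genes were called higher and 0.0924% lower. With DESeq2 the paper called many more genes at both ages, so a lack of calls here is not read as a lack of response. *Lgr5*, a Wnt target and receptor of supporting cells, was among the genes called here, 3.64-fold higher in treated libraries (log2 fold change 1.86, standard error 0.143, adjusted p = 0.00087). *Sox2* was called lower, at 0.628-fold (log2 fold change -0.67, standard error 0.101, adjusted p = 0.03). The paper names reduced *Sox2* in the *Sox2-CreER* knock-in as a limitation. Only treated pups carried that allele, so its effect and that of stabilized β-catenin cannot be told apart. An unadjusted p under 0.05 was found for 5 of the 32, each with a point estimate above 0, and for 12.2% of all genes, a share near that of the 32. For 31 of 32 genes the 95% interval lay within a 2-fold change in either direction, *Insig1* being the exception, and for 25 it lay within 1.5-fold.

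*Fasn* came nearest to a call. Its P1 treated libraries were all above its P1 untreated libraries, by 1.34-fold (log2 fold change 0.42, standard error 0.0781, 95% interval 0.25 to 0.60), with an adjusted p of 0.0599 and rank 80 among all genes. *Acaca*, the enzyme before it in the pathway, measured 1238, 1432 and 1172 in P1 treated and 909, 1079 and 750 in P1 untreated libraries. These did not overlap, and the log2 fold change was 0.50 (standard error 0.139, 95% interval 0.19 to 0.81, adjusted p = 0.182). *Insig1* had a log2 fold change of 0.61 (standard error 0.246, 95% interval 0.06 to 1.15, adjusted p = 0.352), also without overlap. *Idi1* had one of 0.22 (standard error 0.0852, adjusted p = 0.32). *Nsdhl*, a decarboxylase of C4 demethylation encoded on the X chromosome, measured 2666, 2071 and 3023 in P1 treated and 1809, 2223 and 1980 in P1 untreated libraries. These overlapped, and the log2 fold change was 0.36 (standard error 0.136, adjusted p = 0.322). With log2 *Xist* as a covariate the log2 fold change of *Fasn* was 0.35 (adjusted p = 0.684 by limma). Those of *Acaca*, *Insig1*, *Idi1* and *Nsdhl* were 0.48, 1.02, 0.26 and 0.52, and none was called. In that fit 6 genes of 18400 were called higher and 1 lower, against 48 and 17 without the covariate. It too rested mostly on the difference in *Xist* within the P1 untreated libraries.

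For 7 of the 32 genes (21.9%, against 6.95% of all genes) all P1 treated libraries were above all P1 untreated libraries. They were *Idi1*, *Sqle*, *Insig1*, *Srebf2*, *Acaca*, *Fasn* and *Fads2*. For 1 gene, *Ebp* (3.12%, against 8.33%), all were below. The point estimate was above 0 for 26 of 32 genes (81.2%), against 50.8% of all genes. It was above 0 for all 5 genes of SREBP control, with a median of 0.20, and for all 10 of the fatty acid group, with a median of 0.14. It was above 0 for 4 of 6 mevalonate genes (median 0.03) and 7 of 11 from squalene to cholesterol (median 0.05). Over the 32 genes the median was 0.09, against 0.00 over all genes. The genes share the same libraries, so their estimates are not independent. Their mean log2 level was 11.63, 11.57 and 11.61 in P1 treated and 11.44, 11.6 and 11.42 in P1 untreated libraries, which overlapped. At P4 the estimate was above 0 for 20 of 32 genes (62.5%, against 50.4% of all genes), among them 9 of 10 of the fatty acid group (median 0.12) and 4 of 5 of SREBP control (median 0.06). For the fatty acid group the medians at the 2 ages were thus close.

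**Figure D4:**
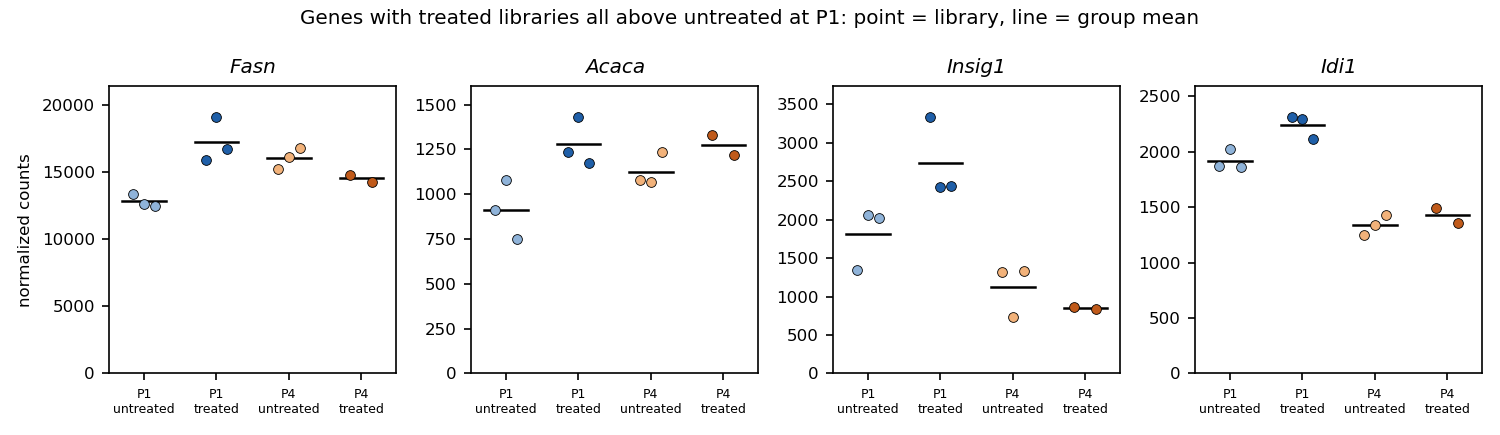
Normalized counts (y axis, from 0) of *Fasn*, *Acaca*, *Insig1* and *Idi1* in each library (points) by group (x axis), with the group mean as a line. At P1 the treated libraries were all above the untreated ones, whereas at P4 those of *Fasn* were all below and those of the other genes overlapped.

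Markers of other cells also had values that went with treatment at P1. All 10 immune cell markers had a point estimate below 0, with a median of -1.07, and 8 had an unadjusted p under 0.05, but none was called. Their sum was 1683 to 3342 in P1 treated and 3752 to 4812 in P1 untreated libraries, and none was at 0 throughout. The 10 mesenchymal markers had a median of -0.76. *Lum* was called higher, and 5 others had an unadjusted p under 0.05 with an estimate below 0. The 10 neuronal markers had a median of -0.52, with 8 of 10 below 0 and 3 of these at an unadjusted p under 0.05, and none was called. P1 treated replicate 2, the highest library for *Fasn*, stood apart in markers of the stria vascularis and melanocytes, with a mean log2 level of 8.25 against 5.06 to 6.91 in all others. Without it the log2 fold change of *Fasn* was 0.35 (adjusted p = 0.0818), that of *Acaca* 0.42 and that of *Insig1* 0.68. Their part in the values above was not otherwise tested.

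At P4 none of the 32 genes was called either, where 0.0326% of all genes were called higher and 0.0217% lower. *Ebp* alone had an unadjusted p under 0.05, 1 of 32, against 11.6% of all genes. Its treated libraries, 549 and 561, were below the untreated ones, 647, 739 and 742 (log2 fold change -0.35, standard error 0.122, 95% interval -0.62 to -0.08, adjusted p = 0.328). *Nsdhl*, *Sc5d*, *Scd2* and *Elovl5* had all treated libraries above all untreated ones (12.5%, against 16.6% of all genes), and *Mvd*, *Ebp* and *Fasn* had all below (9.38%, against 16.9%). Both shares were under those of all genes. The median was 0.05, against 0.00 over all genes. The 95% interval of every one of the 32 genes lay within a 2-fold change, and that of 26 within 1.5-fold. *Fasn* had a log2 fold change of -0.14 (standard error 0.0873, 95% interval -0.33 to 0.05, adjusted p = 0.559) and *Insig1* one of -0.36 (standard error 0.275, 95% interval -0.96 to 0.25, adjusted p = 0.644). Lists of markers of other cells had median log2 fold changes below 0 at P4 as well, -1.06 for neuronal markers (7 of 10 without overlap), -0.64 for mesenchymal, -0.58 for Schwann cell and -0.44 for immune markers. None of these markers was called, and their part in the values of *Ebp* and *Fasn* was not tested.

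**Figure D5:**
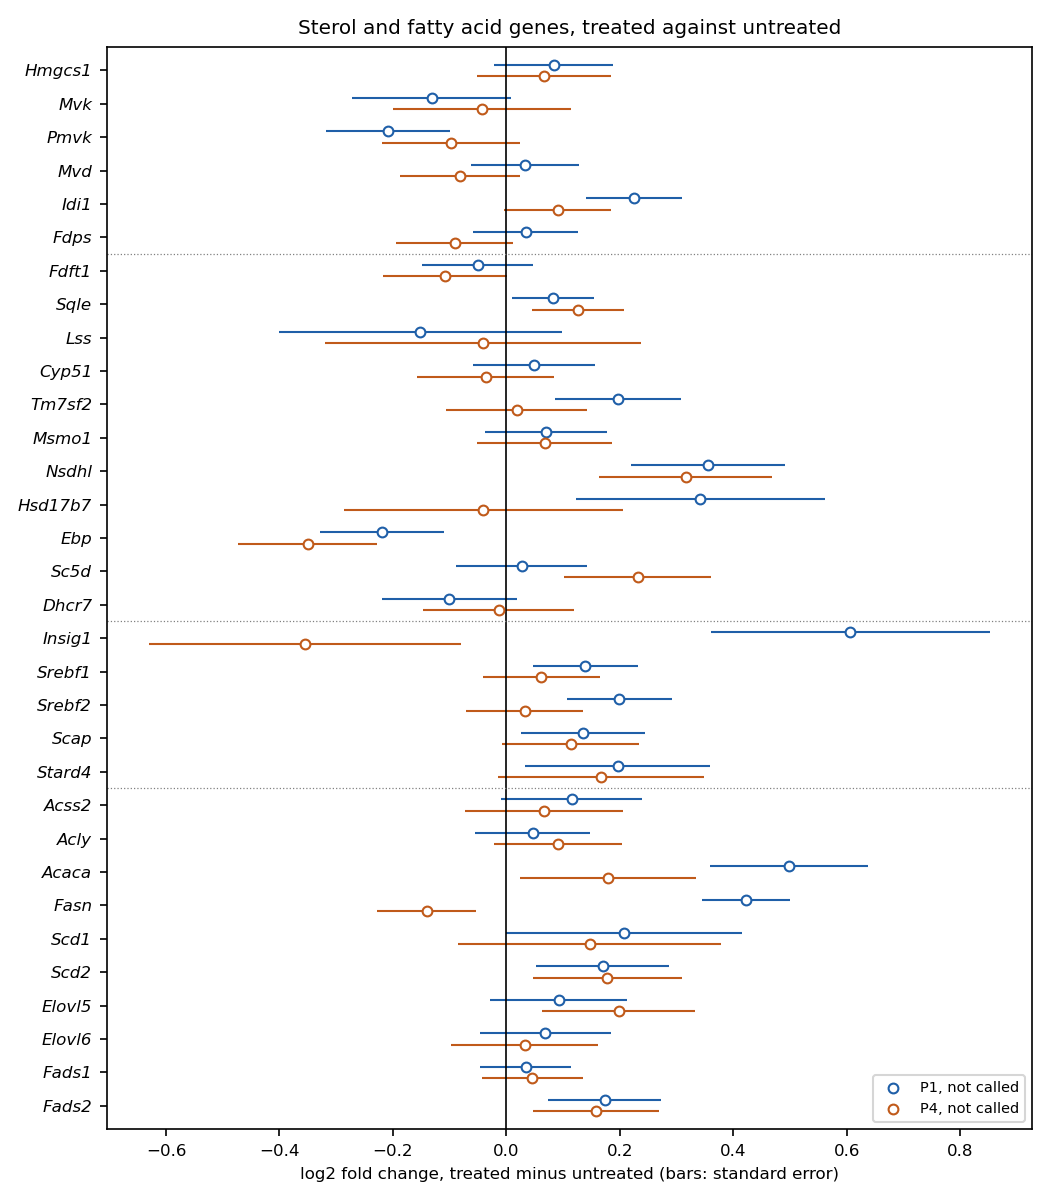
Log2 fold change between treated and untreated libraries (x axis, bars show the standard error) of the 32 genes (y axis) at P1 (blue) and P4 (orange). All points are open, as no gene was called. *Insig1*, *Acaca* and *Fasn* lie farthest to the right at P1, at 0.61, 0.50 and 0.42.

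Whether treatment acted differently at the 2 ages was tested by the interaction of treatment and age, that is the log2 fold change at P1 less that at P4. 0 of the 18400 genes was called (0%), and 1067 (5.8%) had an unadjusted p under 0.05. *Fasn* and *Insig1* were the only ones of the 32 genes below that p. The difference was 0.56 for *Fasn* (standard error 0.117, 95% interval 0.30 to 0.82, adjusted p = 0.597 by limma), which ranked 20th among all genes. For *Insig1* it was 0.96 (standard error 0.369, 95% interval 0.14 to 1.78, adjusted p = 0.82 by limma).

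Other genes of these pathways, kept in lists beside the 32, were counted in the same way. Of 14 other sterol and isoprenoid genes, 2 were higher at P1 and 1 higher at P4 in untreated libraries, and the counts were the same in treated libraries. The share called was 21.4% in both, against 19.9% of all genes in untreated and 11.1% in treated libraries. *Lbr*, which codes for a nuclear envelope protein with sterol reductase activity, was between 2264 and 2977 in P1 libraries and between 1460 and 1682 in P4 libraries. It was 1.59-fold higher at P1 in both comparisons. *Acat2*, which makes the acetoacetyl-CoA that enters the mevalonate pathway, was between 4372 and 4916 at P1 and between 3268 and 3559 at P4 and was 1.33-fold and 1.35-fold higher at P1. *Fntb*, a subunit of the enzyme that attaches farnesyl groups to proteins, was 1.49-fold and 1.35-fold higher at P4.

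Of 25 other lipid synthesis genes, 2 were higher at P1 and 6 higher at P4 in untreated libraries, and 1 and 5 in treated libraries. The shares called were 32% and 24%, against 19.9% and 11.1% of all genes. *Acsl3*, which activates long chain fatty acids, was between 14951 and 20063 at P1 and between 33290 and 39961 at P4, with no overlap. It was 2.20-fold higher at P4 in untreated (adjusted p = 0.000286) and 2.08-fold higher in treated libraries (adjusted p = 0.00235). *Acsl6*, of the same family, was 2.66-fold and 2.05-fold higher at P4, whereas *Acsl5*, also of that family, was 1.65-fold higher at P1 in untreated libraries. *Me1*, malic enzyme, a source of NADPH for fatty acid synthesis, was 1.56-fold and 1.41-fold higher at P4. *Mlxipl*, which codes for the carbohydrate-responsive factor ChREBP, was 1.75-fold higher at P4 in treated libraries.

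Of 14 genes of sterol export and the response to the oxysterol receptor LXR, none was called in treated libraries (0%, against 11.1%). In untreated libraries 1 was called (7.14%, against 19.9% of all genes). It was *Ch25h*, cholesterol 25-hydroxylase, with 39, 70 and 74 normalized counts in P1 untreated and 5, 4 and 2 in P4 untreated libraries (log2 fold change 3.74, standard error 0.816, adjusted p = 0.00986). P1 treated libraries had 4, 20 and 21, below all P1 untreated ones. Of 13 genes of fatty acid oxidation none was called in untreated libraries (0%, against 19.9% of all genes). In treated libraries 1 was called (7.69%, against 11.1%). It was *Cpt1a*, which carries fatty acids into mitochondria, and it was 1.45-fold higher at P4 (adjusted p = 0.0327). No gene of these 4 lists was called between treated and untreated libraries at either age.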

How the data were processed

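RNA was not pooled across pups, and each library is 1 pup. 11 of the 12 libraries described are in the table used, and replicate 2 of P4 treated was not analysed here. The deposited values were taken as a score, namely counts that the authors had scaled by library size factors and rounded. The authors used STAR 2.5.2b to map reads to mm10, quantified transcripts with Sailfish and summed them per gene with tximport. The authors tested genes with DESeq2. Which of the counts underlie the table is not stated in these sources. Rounding removed the spacing of whole reads, so no method for raw counts was used, and the sums of 41.2 to 44.2 M are of normalized values and not read depths.

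Of 27755 entries, 1 with a repeated ID was left out. log2(normalized count + 1) was fitted in R 4.3.3 with limma 3.58.1 (4 group means, a spread shared by all libraries, eBayes with trend) for the 18400 genes with a mean of at least 10. P-values were adjusted over all of these by the method of Benjamini and Hochberg. The scripts were tested on simulated data. The members and lists, written from textbook knowledge, were chosen with earlier results of these data known. All 32 genes were accounted for, those called in at least 1 comparison in every library. Fold changes are printed for called pairs and for pairs with an unadjusted p under 0.05, with others beside them where a result turns on them. Of each other list, up to 4 called genes per comparison with the smallest adjusted p were eligible.

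Replicates of a group differed in at least 98.6% of genes, so none was a repeated deposit. Deviations of P1 and P4 untreated libraries of the same replicate number correlated by 0.135, 0.136 and 0.115. The numbers come from the labels, which do not say that they pair libraries. The main fit did not pair libraries by number, and a replicate block was used only as an alternative. The alternatives were another pseudocount, another filter or none, median-of-ratios or quantile scaling, no trend of the spread, a fit with only the groups compared, a replicate block, log2 *Xist* as a covariate, other thresholds and leaving out each library.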

Additional observations from a re-analysis of the deposited data

Results flagged for a closer look

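The difference between treated and untreated libraries in *Fasn*, fatty acid synthase, was of opposite sign at the 2 ages. All P1 treated libraries were above all P1 untreated libraries and both P4 treated libraries were below all P4 untreated libraries. The effect at P1 less that at P4 was 0.56 on the log2 scale (standard error 0.117). The interaction test over all genes gave an adjusted p of 0.597 by limma, so the difference did not pass. *Xist* was high in both P4 treated and low in all P4 untreated libraries, so treatment and the level of *Xist* cannot be told apart at P4.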

How the results depend on the processing

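Of the 16 calls, 5 held under all 22 alternatives, those of *Idi1*, *Hsd17b7*, *Scd1* and *Elovl6* in untreated and of *Scd1* in treated libraries. No value changed sign. Adding log2 *Xist* to the fit left 2 genes higher at P1 and 2 at P4 in untreated libraries, and 0 and 1 in treated libraries. That fit rested mostly on the P1 untreated libraries and could not separate *Xist* from age in treated libraries. Genes called higher at P4 in treated libraries fell from 2 to 1, with *Elovl5* lost, without the trend, with only the groups compared and with the replicate block, which in that comparison also ended the call of *Acss2*. The block changed no other count of the 32 genes, and deviations correlated by at most 0.026 in the comparisons other than P1 against P4 untreated. At an adjusted p under 0.1, 1 gene, *Fasn*, was higher in P1 treated libraries.

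Leaving out 1 library gave 0 to 1 genes higher in P1 treated libraries, the 1 being *Fasn* without P1 treated replicate 1 (adjusted p = 0.0253; 0.0253 to 0.684 over its alternatives). In untreated libraries it gave 3 to 6 genes higher at P1 and 2 to 5 higher at P4, with 3 without P1 untreated replicate 1 or P4 untreated replicate 2, and 2 without P1 untreated replicate 3 or P4 untreated replicate 3. In treated libraries it gave 0 to 7 higher at P1, with 0 when P4 treated replicate 3 was dropped and 3 when replicate 1 was, and 1 to 3 higher at P4, with 1 in both of these cases. With these left out, the P4 treated group held 1 library, which was assumed to vary like the others. Log2 changes under 0.32 could not be called. The cause of these shifts was not tested beyond the smaller number of libraries.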
